A study of Homo sapiens with 12 samples.

Results

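Expression of 9 genes of the NRF2 oxidative stress pathway was followed in MDA-MB-231 cells treated with Paclitaxel. The 9 genes were NFE2L2, KEAP1, HMOX1, NQO1, GCLC, GCLM, TXNRD1, SRXN1 and OSGIN1, taken by symbol from the 63568 gene identifiers of the count table, and each symbol matched 1 identifier. All 9 passed the filter on low counts, which left 25249 genes for testing.

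MDA-MB-231 is a triple negative breast cancer line, here with a wild type genotype label, a nuclear GFP marker and growth in droplets of Matrigel, a basement membrane gel, and all 12 samples share these features. Paclitaxel is a drug that binds and stabilises microtubules. The 6 conditions had 2 samples each: untreated cells on day 2 (C1), untreated cells on day 4 (C2), and cells given 0.0005, 0.005, 0.05 or 0.5 μM Paclitaxel on day 2 and taken on day 4 (Pac0.0005, Pac0.005, Pac0.05 and Pac0.5). Total RNA was sequenced from whole samples, so fewer cells of a type and less RNA per cell cannot be told apart, and a single line carries the result.

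NRF2, encoded by NFE2L2, is a transcription factor that KEAP1 holds in the cytoplasm and passes to degradation under resting conditions. Electrophiles and oxidants modify cysteines of KEAP1, NRF2 then accumulates and, with small MAF proteins, binds antioxidant response elements near genes for glutathione synthesis, thioredoxin reduction, quinone reduction and haem breakdown. NRF2 is regulated largely at the level of protein stability, and its mRNA need not follow its activity. HMOX1 is also repressed by BACH1, a repression that haem relieves.

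The core of the antioxidant response element is written TGACNNNGC, where N is any base. In RefSeq windows (GRCh38.p14) from 250 bases before to 50 bases after annotated gene starts, this core was found on either strand for 3 of the 8 members with a window (GCLM, TXNRD1 and KEAP1) and for 16.1% of 27305 genes. The related letters TGAGNNNGC were found for 6 of 8 members (OSGIN1, and NFE2L2, NQO1, GCLM, TXNRD1 and KEAP1, which were called at no dose) and 21.6% of genes, and the AP-1 core TGANTCA for 1 of 8 (OSGIN1) and 9.37% of genes. HMOX1 is named only. The lines give 1 match each for GCLM, TXNRD1, KEAP1 and OSGIN1 with 10 bases on either side, 5′ to 3′ on the strand of the match, with the match in capitals, which is TGACNNNGC for GCLM, TXNRD1 and KEAP1 and the related letters TGAGNNNGC for OSGIN1. They are shown because they hold 1 match to TGACNNNGC for each gene with that core, and the only stretch that also holds TGANTCA.
GCLM, chr1:93909446-93909474, plus strand: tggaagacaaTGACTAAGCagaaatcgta
TXNRD1, chr12:104286920-104286948, minus strand: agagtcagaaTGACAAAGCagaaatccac
KEAP1, chr19:10502784-10502812, plus strand: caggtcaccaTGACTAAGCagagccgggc
OSGIN1, chr16:83953131-83953159, minus strand: ttcataagcgTGAGTCAGCaggggcccgt
The matches lay 34, 102, 31 and 99 bases before the start site, in that order. The OSGIN1 match overlaps the only TGANTCA match among the members, and GCLM, TXNRD1 and KEAP1 have further matches to TGACNNNGC or TGAGNNNGC in their windows. A match of letters is a description and was not measured as binding in these cells.

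Library totals ran from 38380629 to 79169121 counts. The C1 libraries stood apart from each other: the difference in log2 CPM between them had an SD of 0.58 over 12245 genes, against 0.10 to 0.24 between the replicates of the other 5 conditions. For treated against untreated cells, each member is therefore also given with C2 as the only control. VIM, CD44, KRT18 and EGFR, present in this line, were high (lowest value 110.1 CPM, counts scaled to a common library size), and ESR1, PGR and CDH1 stayed at or under 0.460 CPM, while EPCAM at 4.37 to 6.77 CPM and ERBB2 at 26.6 to 52.4 CPM, of the same list of low or absent genes, were detected in every library. Summed markers of other cell types were low in every library but higher after treatment. The 4 fibroblast genes summed to 0.225 to 0.477 CPM in untreated and 1.09 to 2.57 CPM in treated libraries, most of it PDGFRA, with DCN and COL1A2 at most 0.153 CPM. The 3 leukocyte genes summed to 0.447 to 0.644 against 1.05 to 1.71 CPM, most of it CD14, with CD3E at most 0.0300 CPM, and the 2 matched endothelial genes to 0.0298 to 0.704 against 0.540 to 1.15 CPM. The number of identifiers with a count was 30608 to 33824 in untreated and 34591 to 39480 in treated libraries, without overlap, and mitochondrial genes took 3.73 to 7.74% of counts, most in C1 replicate 2. The part of these differences in the results was not tested.

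HMOX1 showed the largest change of the 9 genes. It encodes haem oxygenase 1, the inducible enzyme that breaks haem down to biliverdin, carbon monoxide and iron, and lies on chromosome 22, 35776354 to 35790207 (GRCh37, plus strand). In untreated cells HMOX1 was at 8.64 and 6.47 CPM on day 2 and at 9.94 and 10.5 CPM on day 4. With Paclitaxel it was at 28.5 and 27.6 CPM at 0.0005 μM and at 23.4 and 24.8 CPM at 0.005 μM. It reached 48.7 and 47.8 CPM at 0.05 μM and 60.3 and 51.8 CPM at 0.5 μM. All 8 treated libraries lay above all 4 untreated ones, which held for 7.39% of all tested genes. The 4 libraries of the upper doses lay above the 4 of the lower doses, and the share of all genes with this order was not computed. The HMOX1 values rest on 217 to 4020 counts per library.

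Against C2, HMOX1 was 2.74-fold higher at 0.0005 μM (log2 fold change 1.46, SE 0.16, adjusted p = 0.000484). The fold was 2.36 at 0.005 μM (log2 1.24, SE 0.16, adjusted p = 0.00169), 4.72 at 0.05 μM (log2 2.24, SE 0.16, adjusted p = 1.79e-05) and 5.48 at 0.5 μM (log2 2.45, SE 0.16, adjusted p = 1.48e-05). All adjusted p-values, unless another tool is named, come from a quasi-likelihood model in edgeR, since an exact test of 2 against 2 samples cannot go below 0.333. They are adjusted by Benjamini-Hochberg over all genes tested, which were 25249 in the main fits. Refits that filtered the genes again had other numbers, such as 25109 without both samples of day 2. Among the 8 treated libraries HMOX1 rose by 0.39 on the log2 scale per 10-fold dose (SE 0.07, adjusted p = 0.00961). All of these calls held under every alternative run.

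The estimated steps of HMOX1 between neighbouring doses differed in size, and no step was tested against another. HMOX1 differed by -0.22 (log2) between the lowest pair of doses, by 1.0 from 0.005 to 0.05 μM (SE 0.15, adjusted p = 0.227) and by 0.22 from 0.05 to 0.5 μM. No gene of the 25249 was called at any of these 3 steps by edgeR (0% each), although 2614, 1569 and 649 genes had an unadjusted p under 0.05. DESeq2 called 0, 30 and 4 genes, with the middle step of HMOX1 among them (log2 1.0, adjusted p = 9.86e-06). With a filter of 1 count in total, which left 48909 genes, edgeR called 653, 145 and 15 genes, again with the middle step of HMOX1 (adjusted p = 0.000382), and with offsets for GC content and gene length 0, 19 and 0, with the same step (adjusted p = 0.0202). Without both C1 libraries edgeR also called that step (log2 1.0, adjusted p = 0.000583), as it did without C1 replicate 1 (adjusted p = 0.000361) or replicate 2 (adjusted p = 0.000419). The steps were chosen for testing after the values by dose had been seen.

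OSGIN1 was the second gene to rise. It encodes an oxidative stress induced growth inhibitor and lies on chromosome 16, 83964916 to 83999937 (plus strand), with 8.22% of its exon bases shared with MLYCD on the same strand. Its level was 7.96 and 4.44 CPM in C1 and 7.35 and 6.02 CPM in C2. In treated cells it was 14.1 and 13.6 CPM in Pac0.0005, 11.5 and 10.9 CPM in Pac0.005, 17.9 and 18.4 CPM in Pac0.05, and 14.0 and 11.2 CPM in Pac0.5. As for HMOX1, the 8 treated libraries did not overlap the 4 untreated ones, but the highest level was at 0.05 μM.

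Against C2, OSGIN1 rose 2.07-fold at 0.0005 μM (log2 1.05, SE 0.23, adjusted p = 0.0323), 2.71-fold at 0.05 μM (log2 1.44, SE 0.23, adjusted p = 0.0038) and 1.88-fold at 0.5 μM (log2 0.91, SE 0.23, adjusted p = 0.0375). At 0.005 μM it did not pass the test (log2 0.74, SE 0.23, adjusted p = 0.101), but did so with DESeq2 (adjusted p = 0.0438) and without C1 replicate 1 (adjusted p = 0.00259) or C1 replicate 2 (adjusted p = 0.00219). The call at 0.05 μM held under every alternative. The call at 0.0005 μM was lost without any one library other than the C1 libraries and Pac0.5 replicate 2, with log2 values of 0.90 to 1.20 and adjusted p of 0.0534 to 0.228. That at 0.5 μM was lost without any one library outside C1, with log2 values of 0.71 to 1.06 and adjusted p of 0.0596 to 0.199. The slope of OSGIN1 on dose was 0.04 (SE 0.08, adjusted p = 0.847).

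Of the 9 genes, 2 were called in Pac0.0005 (2.34% of all genes), 1 in Pac0.005 (3.28%), 2 in Pac0.05 (8.32%) and 2 in Pac0.5 (6.32%), all of them HMOX1 or OSGIN1 and all higher. Higher calls made up 1.87%, 2.5%, 5.09% and 4.36% of all genes at these doses. The 9 genes were chosen with earlier results of these data known, so these shares are a description and no test. The median log2 change over the 9 genes was 0.34, 0.11, 0.17 and 0.20, against -0.04, -0.11, -0.11 and -0.10 over all genes with at least 5 CPM. On the slope with dose 1 of 9 was called, HMOX1, against 3.06% of all genes. The slopes of the 7 members other than HMOX1 and OSGIN1 were -0.09 for GCLM, -0.07 for GCLC, -0.06 for TXNRD1, -0.05 for SRXN1, -0.02 for NQO1, -0.01 for KEAP1 and -0.01 for NFE2L2 (adjusted p 0.222 to 0.947).

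**Figure D1:**
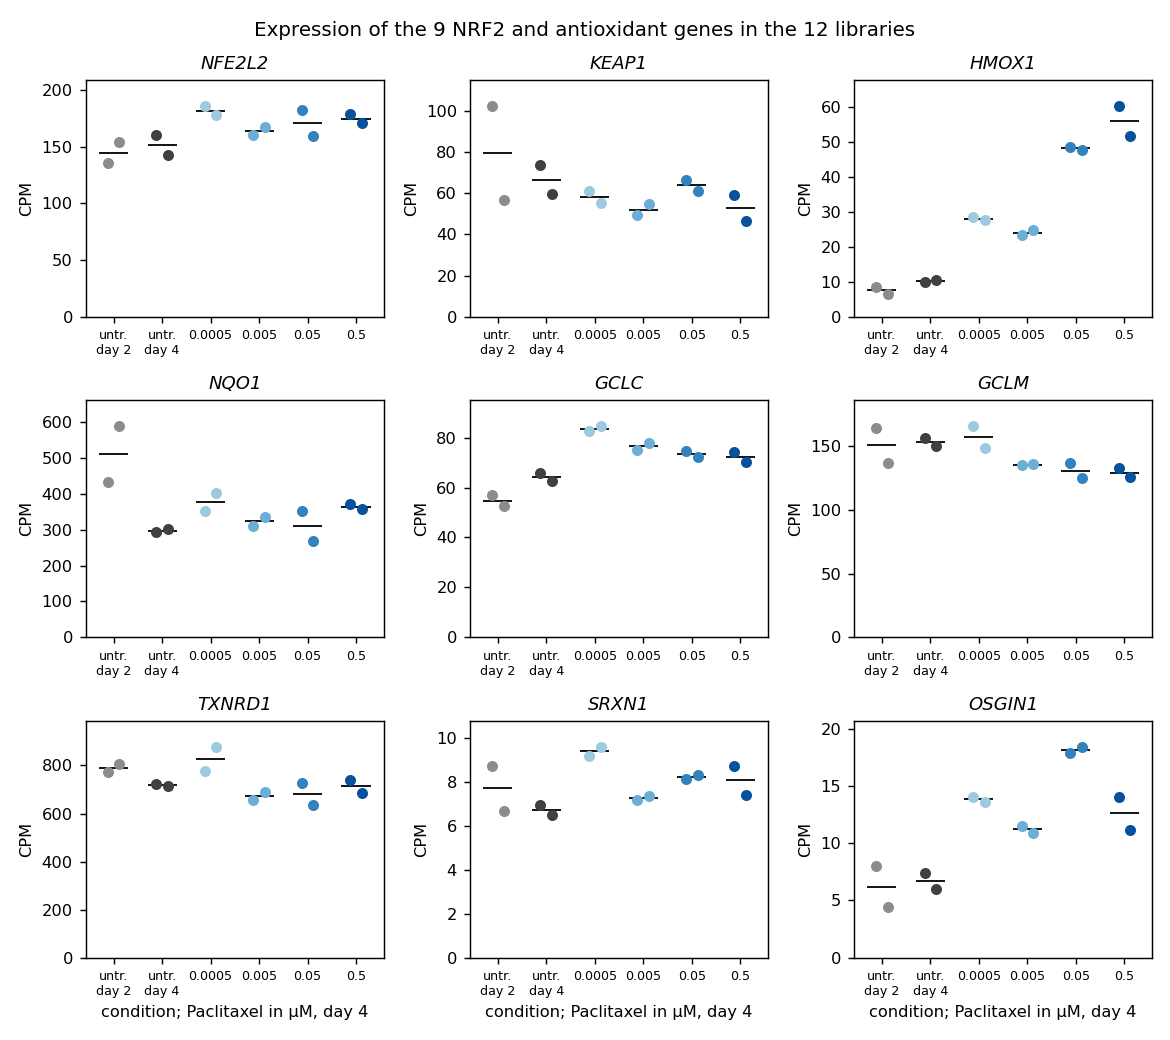
Level in CPM (linear axis from 0) of each of the 9 genes in the 12 libraries, by condition, with points for the 2 libraries of a condition and a line at their mean. HMOX1 climbs from 6.47 to 10.5 CPM in untreated libraries to between 23.4 and 60.3 CPM in treated ones, OSGIN1 from at most 7.96 to at least 10.9 CPM, and the other 7 genes stay within 2.20-fold over all libraries.

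The sensor and the transcription factor were called at no dose. NFE2L2 (chromosome 2, 178083395 to 178257484, minus strand) had 136 and 154 CPM in C1, 161 and 143 CPM in C2, and 160 to 186 CPM in the 8 treated libraries. Of these 8 libraries 6 lay above all 4 untreated ones, and the share of all genes with such a count was not computed. The log2 change of NFE2L2 against C2 was 0.26, 0.11, 0.17 and 0.20 at rising dose, with SE 0.14 each and adjusted p of 0.355 to 0.687. HNRNPA3 on the opposite strand shares 23.4% of the exon bases of NFE2L2, and whether counting used strand is not given in the sources used here.

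KEAP1 (chromosome 19, 10596801 to 10614234, minus strand) stood at 102 and 56.9 CPM in C1 and 73.4 and 59.6 CPM in C2. Treated libraries had 46.7 to 66.6 CPM, and 4 of the 8 lay below all untreated ones. How many of all genes had such a count was not computed. The log2 changes against C2 were -0.20, -0.36, -0.06 and -0.33 (SE 0.23 each, adjusted p 0.427 to 0.910). The C1 libraries of KEAP1 differed more from each other than the treated libraries did from C2.

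GCLC and GCLM encode the catalytic and the modifier subunit of glutamate-cysteine ligase, which performs the rate-limiting step of glutathione synthesis. GCLC (chromosome 6, 53362139 to 53481768, minus strand) had 56.8 and 52.5 CPM in C1 and 65.8 and 62.6 CPM in C2, and 82.7 and 84.5 CPM at 0.0005 μM. Libraries had 75.1 and 77.8 CPM in Pac0.005, 74.6 and 72.4 CPM in Pac0.05, and 74.3 and 70.4 CPM in Pac0.5. Every treated library lay above every untreated one, which held for 7.39% of all tested genes, and the highest level was at the lowest dose.

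Against C2 alone GCLC differed by 0.38 (SE 0.12, adjusted p = 0.135), 0.25, 0.20 and 0.17 on the log2 scale, and no dose was called. At 0.0005 μM it was called by DESeq2 (log2 0.39, adjusted p = 0.0332) and without C1 replicate 1 (adjusted p = 0.0323) or C1 replicate 2 (adjusted p = 0.0230). GCLM (chromosome 1, 94350755 to 94375012, minus strand) had 137 to 165 CPM in untreated and 125 to 166 CPM in treated libraries. In 6 of 8 treated libraries it lay below all untreated ones, and the share of all genes with such a count was not computed. The log2 changes of GCLM against C2 were 0.03, -0.18, -0.23 and -0.25 (SE 0.14 each), none called.

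NQO1 was higher in both C1 libraries than in the other 10 and was called at no dose. It encodes an NAD(P)H quinone reductase, a widely used NRF2 target, and lies on chromosome 16, 69740899 to 69760571 (minus strand). It was at 433 and 588 CPM in C1, 294 and 301 CPM in C2, and 267 to 404 CPM in the treated libraries. So 7 of 8 treated libraries lay above both C2 libraries and none above C1, and the share of all genes with such counts was not computed. Against C2 the log2 changes were 0.34, 0.12, 0.06 and 0.29 (SE 0.18 each, adjusted p 0.356 to 0.894). From day 2 to day 4 without drug NQO1 differed by -0.78 (SE 0.18, adjusted p = 0.148), and no member was called in that comparison (0.325% of all genes). DESeq2 called it (log2 -0.81, adjusted p = 0.00433), as did edgeR without C1 replicate 1 (log2 -0.98, adjusted p = 0.00343). HMOX1 differed by 0.43 between these days (adjusted p = 0.417), and by 0.66 without C1 replicate 1 (adjusted p = 0.016). KEAP1 differed by -0.26 (adjusted p = 0.719), by -0.59 without C1 replicate 2 and by 0.23 without C1 replicate 1. The other 6 members differed by -0.20 (SRXN1) to 0.23 (GCLC) between these days, with 0.07 for NFE2L2, 0.02 for GCLM, -0.13 for TXNRD1 and 0.09 for OSGIN1 (adjusted p 0.535 to 0.966).

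TXNRD1, the cytosolic thioredoxin reductase, had the highest level of the members and was called in no comparison. On chromosome 12, 104609557 to 104744085 (plus strand), with EID3 inside it, TXNRD1 had 716 to 807 CPM in untreated and 635 to 877 CPM in treated libraries. Its log2 changes against C2 were 0.20, -0.10, -0.08 and -0.01 (SE 0.15 each). SRXN1 (chromosome 20, 627259 to 633844, minus strand) encodes sulfiredoxin, which restores overoxidised peroxiredoxins. It had 6.48 to 8.72 CPM in untreated and 7.16 to 9.59 CPM in treated libraries, and the 8 treated libraries lay above both C2 libraries (12.1% of all genes) and above C1 replicate 2 (6.68 CPM), while C1 replicate 1 (8.72 CPM) lay above 5 of them. The log2 changes of SRXN1 were 0.48 (SE 0.16, adjusted p = 0.158), 0.11, 0.29 and 0.27, and the first was called without both C1 libraries (log2 0.49, adjusted p = 0.0259). A further identifier on the same strand shares 90.7% of its exon bases, so its count is uncertain.

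**Figure D2:**
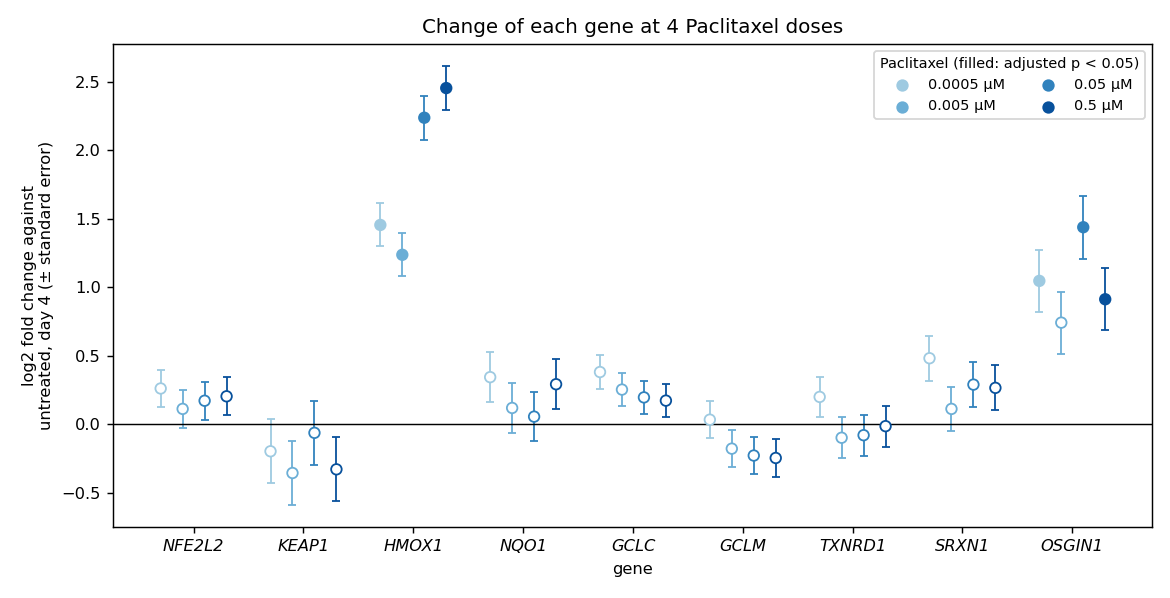
Log2 fold change against untreated day 4 cells (y axis, bars show the standard error of the edgeR fit) for each gene (x axis) at the 4 doses, with filled points for an adjusted p under 0.05. HMOX1 is filled at all 4 doses, with 1.46, 1.24, 2.24 and 2.45, OSGIN1 at all but 0.005 μM, and no point of the other 7 genes is filled.

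Taking the 8 treated against the 4 untreated libraries, 3 of the 9 genes were called, all higher, against 24.4% of all genes called and 13.1% called higher. HMOX1 was 4.38-fold higher (log2 2.13, SE 0.27, adjusted p = 4.46e-05), OSGIN1 2.15-fold (log2 1.10, SE 0.17, adjusted p = 0.000323) and GCLC 1.29-fold (log2 0.36, SE 0.09, adjusted p = 0.00763). With C2 as the only control, HMOX1 (log2 1.94, adjusted p = 0.0144) and OSGIN1 (log2 1.07, adjusted p = 0.00288) kept their calls and GCLC did not (log2 0.26, adjusted p = 0.079). Both untreated days were pooled in this comparison while all treated cells were from day 4.

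For the other members the same comparison gave 0.22 for NFE2L2 (adjusted p = 0.0761), -0.37 for KEAP1 (adjusted p = 0.061), 0.19 for SRXN1 (adjusted p = 0.25) and -0.14 for GCLM (adjusted p = 0.31) on the log2 scale. With C2 as the only control these were 0.20 for NFE2L2 (adjusted p = 0.199), -0.22 for KEAP1 (adjusted p = 0.252), 0.30 for SRXN1 (adjusted p = 0.135) and -0.14 for GCLM (adjusted p = 0.423), none called. NFE2L2 was called without C1 replicate 2 (log2 0.26, adjusted p = 0.0467) but not without C1 replicate 1 (log2 0.18, adjusted p = 0.23), and also by DESeq2 (adjusted p = 0.0288), with a filter of a mean of 10 counts (adjusted p = 0.045) and with the offsets (adjusted p = 0.00307). KEAP1 was at -0.17 without C1 replicate 1 (adjusted p = 0.359), and was called without C1 replicate 2 (log2 -0.45, adjusted p = 0.0183), C2 replicate 2 (log2 -0.46, adjusted p = 0.0319) or Pac0.05 replicate 1 (log2 -0.41, adjusted p = 0.0472), by DESeq2 (adjusted p = 0.0492) and with the offsets (adjusted p = 0.0247). NQO1 gave -0.23 (adjusted p = 0.31), but 0.22 with C2 as the only control (adjusted p = 0.287) and 0.02 without C1 replicate 2, and TXNRD1 -0.06 (adjusted p = 0.716), but 0.02 with C2 alone (adjusted p = 0.95). A two-sided exact permutation test of mean log2 CPM over all 495 splits gave the smallest possible p, 0.00202, for HMOX1, OSGIN1 and GCLC, 0.00606 for NFE2L2 and 0.0384 for KEAP1. The p was 0.0909 for SRXN1, 0.101 for GCLM, 0.366 for NQO1 and 0.430 for TXNRD1 in the same exact test, and these 9 values are not adjusted.

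**Figure D3:**
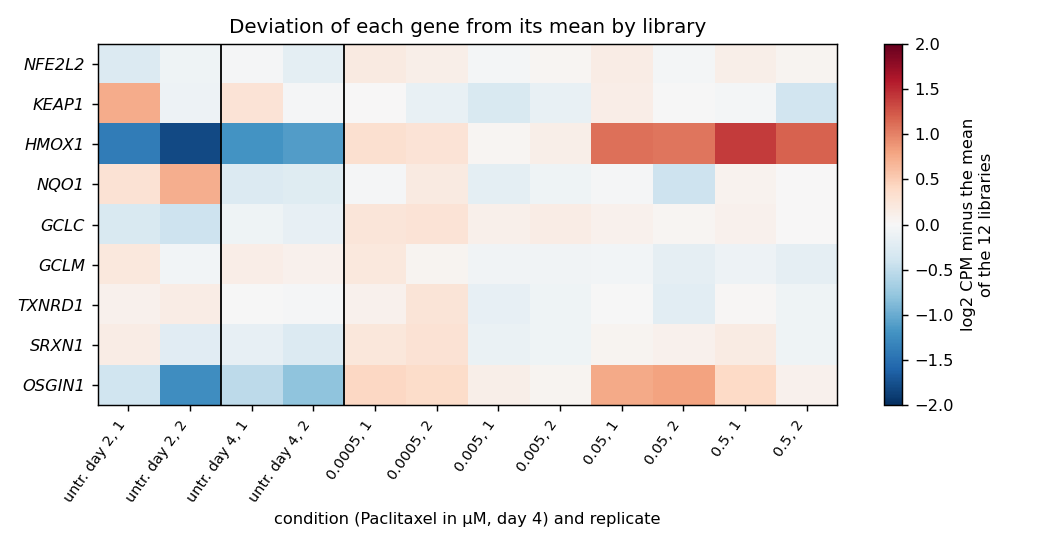
Log2 CPM of each gene (rows) in each of the 12 libraries (columns, by condition and replicate) minus its mean over the libraries, in red above and blue below the mean. HMOX1 and OSGIN1 are blue in the 4 untreated libraries and darkest red in 0.5 μM replicate 1 and 0.05 μM replicate 2, while KEAP1 and NQO1 depart most in 1 C1 library each.

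Per kilobase of the canonical transcript, the order of mean levels in C2 was TXNRD1 (187 CPM per kb), NQO1 (118), NFE2L2 (62.0), GCLM (31.4), KEAP1 (25.9), GCLC (17.0), HMOX1 (6.58), OSGIN1 (3.48) and SRXN1 (2.66). The SD of the 2 libraries in C2 was 0.836 for GCLM, 3.79 for KEAP1, 0.491 for OSGIN1 and 0.135 for SRXN1, and with 2 libraries each no neighbours in the order could be told apart by an exact test. At 0.5 μM HMOX1 came next after TXNRD1, NQO1 and NFE2L2 with 36.1 ± 3.9 CPM per kb (SD, n = 2), above GCLM (26.5 ± 0.95), KEAP1 (20.7 ± 3.5) and GCLC (19.1 ± 0.73).

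Over the 12 libraries the 36 pairs of members had Pearson correlations of log2 CPM from -0.575 to 0.896, with a median of 0.128. The highest was HMOX1 with OSGIN1 (Spearman's rho 0.783), followed by GCLC with OSGIN1 (Pearson's r 0.816, rho 0.643) and NFE2L2 with GCLC (r 0.791, rho 0.734). The lowest was HMOX1 with GCLM. The libraries share conditions and scaling, so these values describe the series and carry no p.

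Among 11090 genes with at least 5 CPM, those most like HMOX1 over the 12 libraries were RSBN1 (r 0.988, rho 0.972), ARRDC4 (r 0.973, rho 0.888) and TAF4B (r 0.969, rho 0.965). Without the 2 libraries farthest from the median of HMOX1 these were 0.980, 0.956 and 0.963. OSGIN1 was most like TUBB2A (r 0.982), TUBB2B (r 0.981), both beta tubulin genes with near-identical sequences, and GADD45A (r 0.972), a stress-induced growth arrest gene. GCLC was most like NCOA7 (r 0.993), C1R (r 0.989) and HLA-B (r 0.981), and NFE2L2 most like DKK3 (r 0.982), RIPK2 (r 0.936) and AFTPH (r 0.929).

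KEAP1 followed TLNRD1 (r 0.990), WDR82 (r 0.988) and NACC2 (r 0.988), and NQO1 followed PEF1 (r 0.969), DDX18 (r 0.967) and FBXO22 (r 0.965). Those nearest to GCLM were ABHD3 (r 0.960), P4HB (r 0.959) and TRIP10 (r 0.942), and those nearest to TXNRD1 were SYAP1 (r 0.968), TMED2 (r 0.966) and PTP4A2 (r 0.963). SRXN1 was nearest to PEX16 (r 0.927), MAD1L1 (r 0.916) and CD82 (r 0.907). No member was among the 3 nearest genes of another member.

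A wider list, compiled by hand with earlier results of these data known, held 55 further genes of the NRF2 and antioxidant systems, all of them tested. Its shares of called genes are therefore a description and no test against all genes. Against C2 the list had 6 called genes in Pac0.0005 (10.9% of the list, beside 2.34% of all genes), 4 in Pac0.005 (7.27% beside 3.28%), 8 in Pac0.05 (14.5% beside 8.32%) and 5 in Pac0.5 (9.09% beside 6.32%), all higher except IDH1 at 0.05 μM. In treated against untreated cells 13 were called, 8 higher and 5 lower, which is 23.6% of the list beside 24.4% of all genes. With C2 as the only control the calls of FECH, GSS, IDH1 and AKR1C1 were lost and those of the others held. None was called between untreated days by edgeR (0.325% of all genes), with 14 of the 55 at an unadjusted p under 0.05, beside 2524 of the 25249 genes tested. The median log2 change of the list in treated against untreated cells was -0.08, beside -0.14 over genes with at least 5 CPM.

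The largest rise in this list in treated against untreated cells was that of TXNIP, while AKR1B10 had the larger change against C2 at 0.0005, 0.005 and 0.5 μM (log2 2.00, 2.39 and 1.91, against 1.49, 1.24 and 1.74 for TXNIP). TXNIP encodes the thioredoxin-interacting protein, which binds and inhibits thioredoxin. TXNIP was at 97.7 to 154 CPM in untreated and 344 to 578 CPM in treated libraries (log2 1.79, SE 0.17, adjusted p = 5.4e-06). The other called gene of the 9 in the thioredoxin and peroxiredoxin system was TXNRD2, the mitochondrial thioredoxin reductase (log2 -0.45, SE 0.09, adjusted p = 0.00233). None of the 7 others, among them TXN and the peroxiredoxins, was called. The called share was 22.2% of this role, beside 24.4% of all genes.

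FTH1 and FTL encode the heavy and light chains of ferritin, which stores iron, and FECH inserts iron into haem. Of 6 genes of haem and iron handling 3 were called, beside 24.4% of all genes called and 13.1% called higher. FTH1 (log2 0.76, SE 0.15, adjusted p = 0.00194) and FTL (log2 0.43, SE 0.13, adjusted p = 0.024) were higher in treated cells and FECH was lower (log2 -0.34, SE 0.10, adjusted p = 0.0228). FTH1 was at 161 to 291 CPM in untreated and 300 to 432 CPM in treated libraries. At 0.5 μM against C2 FTL rose by 0.81 (SE 0.16, adjusted p = 0.0137). The call of FTL was lost without C2 replicate 1 (log2 0.32, adjusted p = 0.106), C2 replicate 2 (log2 0.37, adjusted p = 0.0807) or Pac0.5 replicate 1 (log2 0.40, adjusted p = 0.0507), and its change was 0.71 with C2 as the only control (adjusted p = 0.00336). The call of FECH was lost with C2 as the only control (log2 -0.31, adjusted p = 0.0595), with a filter of 1 count in total (adjusted p = 0.0516), with offsets for GC content and gene length (log2 -0.22, adjusted p = 0.0549), and without C1 replicate 1 (log2 -0.26, adjusted p = 0.0945) or C2 replicate 1 (log2 -0.30, adjusted p = 0.0781).

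Among 8 partners and regulators, SQSTM1, an autophagy receptor that can bind KEAP1, rose (log2 0.88, SE 0.14, adjusted p = 0.000267), from 251 to 403 CPM in untreated to 540 to 693 CPM in treated libraries. MAFK, a small MAF protein, fell (log2 -0.42, SE 0.11, adjusted p = 0.00959), and BACH1, the repressor of HMOX1, was not called. Of 9 glutathione genes only GSS, glutathione synthetase, was called (log2 -0.36, SE 0.09, adjusted p = 0.00648), and it was not called with C2 as the only control (log2 -0.25, adjusted p = 0.0876). Of 6 genes of NADPH supply only IDH1 was called (log2 -0.37, SE 0.12, adjusted p = 0.0386), and this was lost with C2 as the only control (log2 -0.38, adjusted p = 0.0891) and without C1 replicate 2, either C2 replicate, either Pac0.005 replicate, Pac0.05 replicate 1 or Pac0.5 replicate 2 (log2 -0.39 to -0.29, adjusted p 0.0534 to 0.102). None of 3 matched genes of superoxide and peroxide removal was called.

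Of the 14 genes that the list groups under detoxification 4 were called, all higher, beside 24.4% of all genes called and 13.1% called higher. TRIM16L rose (log2 0.88, SE 0.10, adjusted p = 2.77e-05), as did AKR1B10, an aldo-keto reductase (log2 1.47, SE 0.26, adjusted p = 0.000889, at 0.229 to 1.52 CPM) and ABCC2, an efflux transporter of glutathione conjugates (log2 1.05, SE 0.20, adjusted p = 0.00131). The remaining one, AKR1C1, lost its call in 13 of 21 alternatives, among them those without any one library other than C2 replicate 1 or a Pac0.05 replicate (adjusted p 0.0512 to 0.162), and had a log2 value of 0.33 with C2 as the only control (adjusted p = 0.442). On the slope with dose 3 genes of the list fell (5.45% of the list, beside 3.06% of all genes called), AKR1C2 by 0.30 per 10-fold dose (adjusted p = 0.0171), AKR1C1 by 0.27 and AKR1B1 by 0.18, of which AKR1C1 and AKR1B1 are named after their values were seen. The calls of AKR1C2 and AKR1C1 on this slope were lost without Pac0.0005 replicate 1 (adjusted p = 0.164 and 0.148) or replicate 2 (adjusted p = 0.0713 and 0.0744), and that of AKR1B1 also without Pac0.005 replicate 2, Pac0.05 replicate 1 or Pac0.5 replicate 2 (adjusted p 0.057 to 0.242 over the 5). The AKR1B, AKR1C and TRIM16L genes have close copies in the genome, and per the study's methods reads without a unique alignment were dropped. How many reads of these genes that removed was not measured here.

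**Figure D4:**
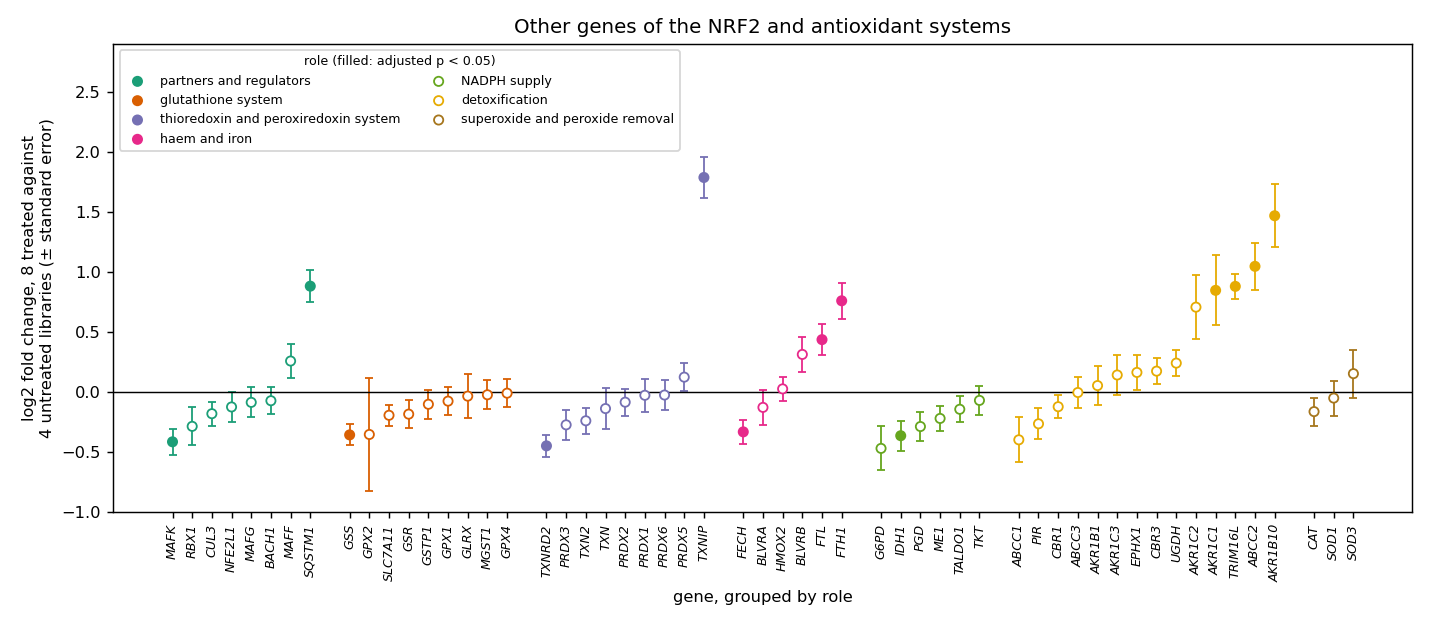
Log2 fold change of 8 treated against 4 untreated libraries (y axis, bars show the standard error) for the 55 further genes (x axis), grouped and coloured by role, with filled points for an adjusted p under 0.05. TXNIP at 1.79 and AKR1B10 at 1.47 lie highest, and 13 points are filled, 8 above and 5 below 0.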

How the data were processed

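Samples were MDA-MB-231 cells in Matrigel, 2 biological replicates in each of 6 conditions, grouped by the labels. The deposited values are raw counts per gene, which the authors made by trimming (Trimmomatic 0.39), quality control (FastQC 0.11.9), alignment to GRCh37 (STAR 2.7.5) and counting of exon reads, neither normalized nor pooled. The strand setting of the counting is not given in the sources used here. The study's methods and the labels differ in the day of drug addition, and the labels were followed. The study's methods also give a larger number of RNA samples than the 12 analysed here.

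From the counts, R 4.3.3 with edgeR 4.0.16 and limma 3.58.1 gave TMM factors, a filter by filterByExpr with the 6 conditions as groups (25249 genes), and robust quasi-likelihood fits, two-sided, with Benjamini-Hochberg adjustment and a threshold of 0.05. Doses and days were tested in 1 fit of 12 samples, treated against untreated in a fit of their own, and the slope per log10 unit of dose over the treated samples alone. The SE is the absolute log2 fold change over the square root of F. CPM was scaled with TMM library sizes, and 2 prior counts were added for log2 CPM. The main edgeR fits were tested on simulated counts with known changes. The alternatives, the exact test, the correlations and the search for sequence matches were not.

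The members and lists were chosen with earlier results of these data known. All 9 members are named in every planned comparison, with the 3 genes most like each by Pearson's r, and from the wider list at most 4 called genes per role by smallest adjusted p. SOD2 and the marker PECAM1 matched no identifier and were not analysed here. Alternatives were DESeq2 1.42.0, RLE normalization, filters of 1 count in total and of a mean of 10 counts, no robust estimation, a replicate block, other control or fit samples, group means, and leaving out each sample in turn. Dose steps, offsets for GC content and gene length, and leaving out both samples of day 2 were chosen after seeing the data.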

Additional observations from a re-analysis of the deposited data

Results flagged for a closer look

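HMOX1 changed with dose among the 8 treated libraries, by 0.39 on the log2 scale per 10-fold dose (SE 0.07, adjusted p = 0.00961, edgeR's quasi-likelihood test). It was singled out because its response differed between doses by a test of the difference itself. For each member the 8 treated and the 4 untreated libraries were examined for 1 library far from the rest, and 0 of these 18 groups had one, where chance gives about 1 in 20. Conditions of 2 libraries cannot be examined in this way, so this does not bear on the distance between the C1 libraries.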

How the results depend on the processing

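The 9 members gave 63 values in 7 comparisons and 1296 refits, of which 1206 kept direction and side of the threshold, 20 lost a call, 38 gained one and 32 changed sign. Of 11 called values 0 changed sign and 8 kept their call in all alternatives run (HMOX1 throughout, OSGIN1 at 0.05 μM and in treated against untreated cells); the exceptions were OSGIN1 at 0.0005 and 0.5 μM and GCLC with C2 as the only control. The causes of lost or gained calls were not tested.

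Members called moved from 2 to 4 at 0.0005 μM with only the 4 samples or without both samples of day 2, and to 3 with DESeq2, both untreated days as control or offsets for GC content and gene length. At 0.005 μM the count moved from 1 to 2 with DESeq2, a filter of 1 count in total, only the 4 samples or no day 2 samples, and to 3 with both untreated days as control or with offsets, and at 0.05 μM it moved from 2 to 3 with offsets. Between days it moved from 0 to 1 with DESeq2, the filter of 1 count and the offsets, and in treated against untreated cells from 3 to 5 with DESeq2 or the offsets, to 4 with a mean of 10 counts or the replicate block, and to 2 with C2 alone. Leaving out 1 library gave 1 to 4, 1 to 2, 2 and 1 to 2 members at rising dose, 0 to 2 between days and 3 to 5 in treated cells. All genes called ranged, over all alternatives, from 144 to 2624 (592 as reported) at 0.0005 μM, from 85 to 3401 (827) at 0.005 μM, from 321 to 4843 (2100) at 0.05 μM, from 129 to 5046 (1596) at 0.5 μM, from 0 to 2682 (82) between days, from 3408 to 7078 (6155) in treated cells, from 123 to 1635 (773) on the slope, and at the 3 dose steps from 0 to 653, 0 to 145 and 0 to 15 (0 each).

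Signs changed only for values that were not called. With both untreated days as control NQO1 had -0.046, -0.27, -0.33 and -0.10 at rising dose, and 0.22 in treated cells with C2 alone. TXNRD1 had 0.026 at 0.05 μM and 0.066 at 0.5 μM with offsets, 0.0058 with a mean of 10 counts, 0.0011 with only the 4 samples, and in treated cells 0.017 with C2 alone and 0.013 with offsets. GCLM between days had -0.0023 with DESeq2 and -0.0019 with RLE, and the KEAP1 slope 0.0049 with offsets. Leaving out 1 library gave ranges of -0.050 to 0.11 for GCLM at 0.0005 μM, -0.22 to 0.093 for KEAP1 and -0.16 to 0.21 for NQO1 at 0.05 μM, and -0.10 to 0.039 for TXNRD1 at 0.5 μM. Between days they were -0.027 to 0.19 for NFE2L2, -0.59 to 0.23 for KEAP1, -0.071 to 0.16 for GCLM, -0.35 to 0.0099 for SRXN1 and -0.22 to 0.59 for OSGIN1. For NQO1 in treated cells the range was -0.37 to 0.021, and on the slope -0.029 to 0.0080 for NFE2L2, -0.029 to 0.045 for KEAP1 and -0.058 to 0.026 for NQO1.

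Replicate numbers did not pair the samples, since deviations of same-numbered libraries correlated from -0.60 to 0.68. With the replicate block KEAP1 in treated against untreated cells was called (-0.34, adjusted p = 0.0493, edgeR), AKR1C1 there (0.85, adjusted p = 0.0559) and the AKR1B1 slope (-0.18, adjusted p = 0.0633) were not, and genes called on the slope went from 773 to 420; it changed no other call of the members. With 2 libraries per condition, the fit without 1 of them assumes that the lone library varies like the others.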
